A study of Mus musculus with 12 samples.

Results

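The 9 genes described here encode transcription factors that set limb identity, limb pattern or the position of muscle precursors in the embryo: *Pitx1*, *Tbx4*, *Tbx5*, *Lbx1*, *Tbx15*, *Pitx3*, *Meox2*, *Shox2* and *Tbx18*. They were taken by name from the 19938 genes with a probe set that carries a single gene symbol, and each of the 9 had exactly 1 such probe set, so that no choice among probe sets was needed. Their mRNA was measured in diaphragm, the breathing muscle, and gastrocnemius, a calf muscle, with Affymetrix Gene 1.0 ST arrays, whose probes for a gene are spread over all its exons. All mice were male, 10 to 12 weeks old and, by the labels, of strain C57Bl6. Per the methods the controls were bought C57BL/6J mice matched for age and sex, so that they need not be littermates of the KO mice. They were either WT or *Cox6a2*-/- (KO), lacking the heart and muscle form of a subunit of cytochrome *c* oxidase, the last enzyme of the respiratory chain. Each of the 4 groups (WT and KO diaphragm, WT and KO gastrocnemius) had 3 arrays that the labels call biological replicates, without saying whether each came from a mouse of its own, so that p-values measure the spread between these arrays. Values are log2 signals after RMA, a method that corrects background, normalizes arrays to each other and combines the probes of a transcript, so that a difference of 1 is a doubling.

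PITX1 and TBX4 act in the hindlimb bud, where PITX1 gives the limb its hind identity and TBX4 helps it to grow out, whereas TBX5 starts the forelimb bud and is also a factor of the heart. LBX1 is made in the muscle precursors that migrate from the somites into limbs, tongue and diaphragm, MEOX2 takes part in the patterning of limb muscle, PITX3 is switched on as muscle fibers differentiate, and TBX15 is abundant in glycolytic fibers of adult mouse muscle. SHOX2 patterns the upper segment of the limb and the sinoatrial node of the heart, and TBX18 marks mesenchyme of limb, epicardium and ureter. The diaphragm, which is no limb muscle, takes its muscle cells from the neck region of the embryo.

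Before any comparison, the labels were checked. *Cox6a2* itself lay between 6.71 and 7.18 on the 6 KO arrays and between 11.65 and 12.06 on the 6 WT arrays, as the genotypes say. The tissue label of the 3 WT diaphragm arrays was not borne out by position genes. As markers of hindlimb position 10 *Hox* genes were taken (*Hoxa9* to *Hoxa11*, *Hoxc8* to *Hoxc11* and *Hoxd8* to *Hoxd10*). Their mean signal was 6.91 to 7.08 on the arrays labelled WT diaphragm and 6.90 to 7.02 in gastrocnemius, but 5.32 to 5.44 in KO diaphragm. The mean of 10 markers of mesothelium, the cell layer that covers the diaphragm, was 5.0 to 5.10 on the arrays labelled WT diaphragm, 4.95 to 5.23 in gastrocnemius and 7.31 to 8.10 in KO diaphragm. The mean of the skeletal muscle markers was high on every array, at 12.77 to 12.78 in KO diaphragm and 13.05 to 13.17 on all other arrays. Between KO diaphragm and the arrays labelled WT diaphragm, an effect of genotype and a difference of tissue therefore cannot be told apart. The comparisons without those arrays are KO against WT gastrocnemius and KO diaphragm against KO gastrocnemius.

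A gene was called at a Benjamini-Hochberg adjusted p under 0.05 over all 19938 genes in 1 limma model of the 4 groups. In KO diaphragm against KO gastrocnemius, 4 of the 9 factors were called (*Shox2* higher, *Lbx1*, *Tbx15* and *Tbx4* lower), where 28.9% of all genes were called. In KO diaphragm against the arrays labelled WT diaphragm, 4 of 9 were called (*Shox2* and *Tbx18* higher, *Lbx1* and *Tbx15* lower), beside 27.6% of all genes. None was called in KO against WT gastrocnemius (0.592% of all genes, 1 member at an unadjusted p under 0.05) or between the arrays labelled WT diaphragm and WT gastrocnemius (0.461% of all genes, 0 members at an unadjusted p under 0.05). By the methods' t-test after Benjamini-Hochberg adjustment, 0 of all genes were called in either of these last comparisons (2708 and 1930 at an unadjusted p under 0.05). It thus missed even *Cox6a2* in KO against WT gastrocnemius (-4.81, limma adjusted p = 2.5e-11), so that this 0 does not show an absence of differences. With so few members, nothing particular to them is read from 4 against these shares. The median difference over the 9 was 0.04 in KO diaphragm against KO gastrocnemius and -0.14 in KO diaphragm against the arrays labelled WT diaphragm, with 0.02 and -0.04 over all genes.

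Promoters are shown for the called members that the RefSeq table used here (build GRCm38.p6) holds, *Shox2*, *Tbx18* and *Tbx4*. *Shox2* was called higher in KO diaphragm than in either group it was set against. *Tbx18* was called higher only against the arrays labelled WT diaphragm, and *Tbx4* lower only against KO gastrocnemius. The stretches before genes called in opposite directions can thus be set side by side. Each runs from 250 bases before to 50 bases after the gene's start, 5′ to 3′ on the gene's strand. Capitals mark E-boxes (CANNTG), the sites of myogenic basic helix-loop-helix factors, and the Meis site TGACAG, read on both strands, with no overlap between the matches shown. They lie at chr3:66981722-66982021 (minus strand) for *Shox2*, chr9:87731211-87731510 (minus strand) for *Tbx18* and chr11:85896515-85896814 (plus strand) for *Tbx4*.
Shox2: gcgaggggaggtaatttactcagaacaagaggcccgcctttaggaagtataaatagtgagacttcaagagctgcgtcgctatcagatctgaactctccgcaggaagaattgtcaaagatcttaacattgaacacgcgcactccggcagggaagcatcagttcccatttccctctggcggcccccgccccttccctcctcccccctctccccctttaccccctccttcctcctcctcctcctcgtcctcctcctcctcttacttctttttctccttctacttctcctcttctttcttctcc
Tbx18: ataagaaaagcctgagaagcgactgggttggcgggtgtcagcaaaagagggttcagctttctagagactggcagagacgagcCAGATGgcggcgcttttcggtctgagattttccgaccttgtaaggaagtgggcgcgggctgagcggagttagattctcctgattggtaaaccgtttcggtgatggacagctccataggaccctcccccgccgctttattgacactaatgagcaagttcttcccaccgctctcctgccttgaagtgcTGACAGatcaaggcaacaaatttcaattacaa
Tbx4: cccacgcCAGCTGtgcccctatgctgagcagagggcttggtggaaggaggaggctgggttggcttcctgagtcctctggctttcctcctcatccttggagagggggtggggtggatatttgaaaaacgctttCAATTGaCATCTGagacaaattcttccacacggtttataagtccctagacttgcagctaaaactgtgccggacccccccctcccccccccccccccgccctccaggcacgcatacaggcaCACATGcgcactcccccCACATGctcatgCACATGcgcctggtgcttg

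The *Tbx4* stretch held 6 E-boxes, 3 of them CACATG close to its end. The *Tbx18* stretch held 1 E-box (CAGATG) and 1 Meis site. No letters of the *Shox2* stretch are in capitals, since neither motif was found there, and C or T made up 96.0% of its last 100 bases. Of 32851 promoters of the same length in the table, 72.3% held an E-box and 19.2% the Meis site, so that such matches are common. The T-box core GGTGTGA (3.98% of promoters) and the bicoid-type site TAATCC of PITX proteins (7.06%) were in none of the 3. G and C made up 53.3% of the *Shox2* stretch, 51.7% of the *Tbx18* stretch and 59.0% of the *Tbx4* stretch. These matches describe letters only.

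Signals near the level of probe sets without target are hard to read, and the file used here holds no detection call. As a guide, the 95th percentile of 1027 olfactory receptor genes, which muscle is not known to use, was 5.21. *Pitx1*, *Pitx3*, *Tbx4*, *Tbx15*, *Lbx1* and *Meox2* exceeded it on all 12 arrays and *Tbx18* on 9. By the mean over the 12 arrays, 67% of all genes exceeded it. *Shox2* exceeded it on 3 arrays, which were the KO diaphragm arrays, and *Tbx5* on 1, a KO diaphragm array. Probe sets differ in how well they bind, so that this level is a guide for each gene and gives no order among the 9.

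**Figure D1:**
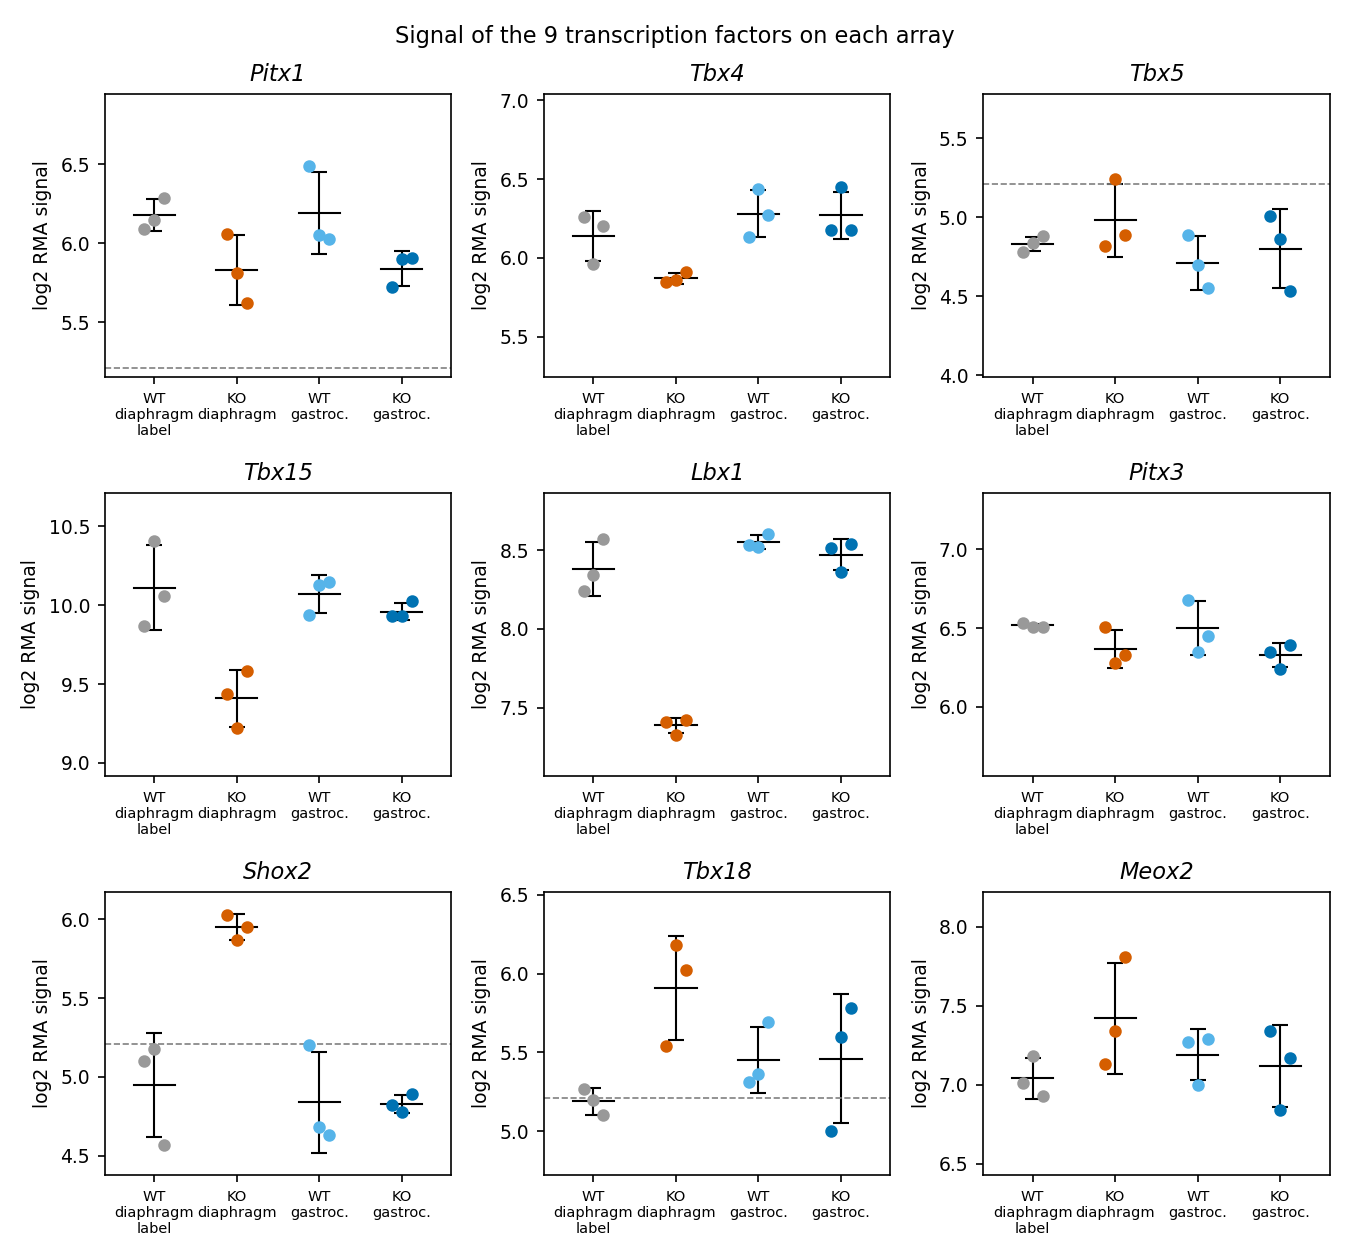
Log2 RMA signal of each factor (vertical axis, with its own range in each panel) on the 3 arrays of each group, with the mean and SD; dashed lines mark 5.21, the 95th percentile of olfactory receptor genes, where it falls in the panel. The points of KO diaphragm do not overlap those of any other group for *Lbx1*, *Tbx15* and *Tbx4* (lower) and *Shox2* (higher), while all groups overlap for *Tbx5*.

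The hindlimb factor *Pitx1* had lower signals in KO than in WT under both tissue labels, but neither difference was called. It measured 6.06, 5.81 and 5.62 in KO diaphragm and 5.72, 5.90 and 5.91 in KO gastrocnemius. It measured 6.09, 6.15 and 6.29 on the arrays labelled WT diaphragm and 6.49, 6.05 and 6.03 in WT gastrocnemius. Every WT array was thus above every KO array of its own label, with a gap of only 0.03 in the diaphragm pair. The difference was -0.35 (95% CI -0.64 to -0.06) under either label, with adjusted p = 0.073 for the diaphragm label and 0.22 for gastrocnemius by limma, so that neither was called. The interaction, which tests whether both differences are unequal, was 0.00 (95% CI -0.41 to 0.42, adjusted p = 0.99).

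The mean of both KO minus WT differences was fitted because these *Pitx1* values had been seen, and it contains the diaphragm label, in which genotype and tissue cannot be told apart, so that it is no independent support. *Pitx1* had adjusted p = 0.019 in it (-0.35, SE 0.096, 95% CI -0.55 to -0.14). It called 4 of the 9 factors, *Pitx1* with *Lbx1*, *Tbx15* and *Shox2*, beside 22.7% of all genes. The gastrocnemius difference alone fell to -0.20 without WT gastrocnemius replicate 1, the array with the highest *Pitx1* signal. That array also had the highest mean of fibroblast markers (10.20, against 9.61 and 9.66) and of adipocyte markers (7.59, against 6.97 and 6.95) among WT gastrocnemius arrays, and the part of these cells in the *Pitx1* signal was not tested. In such whole-muscle RNA, fewer cells of a type and less RNA per cell cannot be told apart.

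*Tbx4*, the other hindlimb factor, was lowest in KO diaphragm. It measured 5.85, 5.86 and 5.91 there and 6.18, 6.45 and 6.18 in KO gastrocnemius. The arrays labelled WT diaphragm gave 6.26, 5.96 and 6.20, and WT gastrocnemius gave 6.13, 6.44 and 6.27. The 3 KO diaphragm arrays lay below the 9 others, with a gap of 0.05 to the nearest, and those 9 overlapped. *Tbx4* fell by 0.40 from KO gastrocnemius to KO diaphragm (1.32-fold, 95% CI -0.64 to -0.16, adjusted p = 0.014). Without KO gastrocnemius replicate 2, its highest array in that group, the difference was -0.31 and was not called (adjusted p = 0.072). The methods' t-test with adjustment on all arrays of both groups did not call it either (adjusted p = 0.06). Against the arrays labelled WT diaphragm the difference of -0.27 was not called (adjusted p = 0.088), and KO and WT gastrocnemius differed by -0.01 (95% CI -0.25 to 0.23).

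The forelimb and heart factor *Tbx5* was called in no comparison. Its signals were 4.82, 5.24 and 4.89 in KO diaphragm, 5.01, 4.86 and 4.53 in KO gastrocnemius, 4.78, 4.84 and 4.88 on the arrays labelled WT diaphragm, and 4.89, 4.70 and 4.55 in WT gastrocnemius. The 4 groups overlapped, and 11 of the 12 arrays were below the olfactory receptor level. KO diaphragm minus KO gastrocnemius was 0.18 (95% CI -0.11 to 0.48, adjusted p = 0.36), an interval that holds differences in either direction.

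The hindlimb factors were also set against *Tbx5* within each array, which cancels any shift of a whole array but adds the spread of *Tbx5*, a signal near background on 11 of the 12 arrays. *Pitx1* minus *Tbx5* then differed by -0.50 between KO and WT under the diaphragm label, by -0.44 in gastrocnemius and by -0.19 between KO diaphragm and KO gastrocnemius. *Tbx4* minus *Tbx5* differed by -0.42, -0.10 and -0.58 in the same order. These values are given with no test. On its own, *Pitx1* differed by -0.01 between KO diaphragm and KO gastrocnemius (95% CI -0.30 to 0.28), an interval that overlaps that of *Tbx4*, and whether the hindlimb factors differ from each other was not tested. All 10 *Hox* genes taken as markers of hindlimb position were called lower in that comparison, beside 28.9% of all genes called either way. Their differences ran from -0.80 (*Hoxa10*) to -4.35 (*Hoxc10*, which was near background in KO diaphragm), with a median of -1.24.

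*Lbx1*, the factor of migrating muscle precursors, had the smallest adjusted p of the 9 in each comparison that involves KO diaphragm. Its signals were 7.41, 7.33 and 7.42 in KO diaphragm, against 8.51, 8.36 and 8.54 in KO gastrocnemius. The arrays labelled WT diaphragm gave 8.24, 8.34 and 8.57, and WT gastrocnemius 8.53, 8.52 and 8.60. KO diaphragm lay 0.82 below the lowest of the 9 other arrays, among which the 3 groups overlapped. *Lbx1* fell by 1.08 from KO gastrocnemius to KO diaphragm (2.12-fold, SE 0.097, adjusted p = 1.9e-06) and by 1.00 from the arrays labelled WT diaphragm (1.99-fold, adjusted p = 4.3e-06). In gastrocnemius KO minus WT was -0.08 (95% CI -0.29 to 0.12), and the interaction was -0.91 (adjusted p = 0.00044).

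*Tbx15*, the T-box factor of glycolytic fibers, fell in the same groups. It measured 9.44, 9.22 and 9.58 in KO diaphragm, while the other 9 arrays ran from 9.87 to 10.41. In KO gastrocnemius it was 9.93, 9.93 and 10.03, in WT gastrocnemius 9.94, 10.13 and 10.15, and on the arrays labelled WT diaphragm 9.87, 10.41 and 10.06. It fell by 0.55 from KO gastrocnemius (1.46-fold, adjusted p = 0.0053) and by 0.70 from the arrays labelled WT diaphragm (1.62-fold, adjusted p = 0.0011). The interaction of -0.59 only just passed (adjusted p = 0.045) and was lost when a single array was left out in 10 of 12 cases, with adjusted p up to 0.11.

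Fiber markers moved with both genes. The mean of 8 markers of fast glycolytic fibers was 10.87 to 11.19 in KO diaphragm and 12.95 to 13.05 elsewhere, and 6 of the 8 were called lower in KO diaphragm against KO gastrocnemius, where 28.9% of all genes were called. *Myh1*, the myosin of type IIX fibers, was called higher (0.77), and *Tnnt3* was not called. Of 8 markers of slow fibers, 7 were called higher, with a mean of 11.25 to 11.46 in KO diaphragm and 9.41 to 10.40 elsewhere. The part of fiber type in the *Lbx1* and *Tbx15* differences was not tested.

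*Pitx3* and *Meox2* were called in no comparison. *Pitx3*, a factor of differentiating muscle, ranged only from 6.24 to 6.68 over the 12 arrays. Its differences were -0.14 under the diaphragm label, where KO and WT arrays met at 6.51 without overlap, and -0.17 in gastrocnemius, where they did overlap. *Meox2* ranged from 6.84 to 7.81 and was highest on KO diaphragm replicate 3. It differed by 0.31 between KO diaphragm and KO gastrocnemius (95% CI -0.05 to 0.66) and by 0.38 between KO diaphragm and the arrays labelled WT diaphragm (adjusted p = 0.098).

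*Shox2* was the factor that was higher in KO diaphragm than on all other arrays. Its signals were 6.03, 5.87 and 5.95 in KO diaphragm and 4.82, 4.78 and 4.89 in KO gastrocnemius. The arrays labelled WT diaphragm gave 5.10, 5.18 and 4.57, and WT gastrocnemius 5.20, 4.68 and 4.63. All 9 of these other arrays were below the olfactory receptor level and overlapped, so that the fold is measured against signals near background. *Shox2* rose by 1.12 from KO gastrocnemius (2.17-fold, SE 0.16, adjusted p = 0.00012) and by 1.00 from the arrays labelled WT diaphragm (2.00-fold, adjusted p = 0.00036). KO and WT gastrocnemius did not separate (0.00, 95% CI -0.35 to 0.34), and the interaction was 1.00 (adjusted p = 0.0083).

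*Tbx18* was less clear. It measured 5.54, 6.18 and 6.02 in KO diaphragm, 5.0, 5.60 and 5.78 in KO gastrocnemius, and 5.31, 5.36 and 5.69 in WT gastrocnemius. The arrays labelled WT diaphragm were the lowest as a group, at 5.27, 5.20 and 5.10, below every WT gastrocnemius array. KO diaphragm overlapped both gastrocnemius groups. *Tbx18* rose by 0.72 from the arrays labelled WT diaphragm (1.65-fold, adjusted p = 0.011), which was lost without KO diaphragm replicate 2 (0.59, adjusted p = 0.055). From KO gastrocnemius the difference of 0.45 was not called (adjusted p = 0.091), nor was the interaction (0.72, adjusted p = 0.092).

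Some lists of markers for cells outside the fibers rose from KO gastrocnemius to KO diaphragm. *Shox2* was called higher in that comparison and *Tbx18* was not called. All 10 mesothelium markers, 4 of 6 fibroblast markers and 5 of 6 adipocyte markers were called higher there, beside 28.9% of all genes called either way. The fibroblast markers *Col1a1* (0.13) and *Col1a2* (0.32) were not called. Of 8 smooth muscle and pericyte markers 3 were higher and 1 lower, and of 6 satellite cell markers 1 was higher and 2 lower. Of 5 bone and cartilage markers 1 was higher and 1 lower, and no tendon (6) or Schwann cell (4) marker was called. On KO diaphragm replicates 1, 2 and 3, the mesothelium means were 7.31, 8.10 and 7.72. In the same order *Tbx18* measured 5.54, 6.18 and 6.02, and *Shox2* 6.03, 5.87 and 5.95, with an SD of only 0.082. Nothing is read from the order of 3 arrays. Fibroblast means were 9.93, 10.38 and 10.40 on these KO diaphragm replicates and 9.61 to 9.68 in KO gastrocnemius. Adipocyte means were 7.79, 8.82 and 7.15 on them and 6.51 to 6.86 in KO gastrocnemius. The part of these cells in the *Shox2* and *Tbx18* values was not tested.

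**Figure D2:**
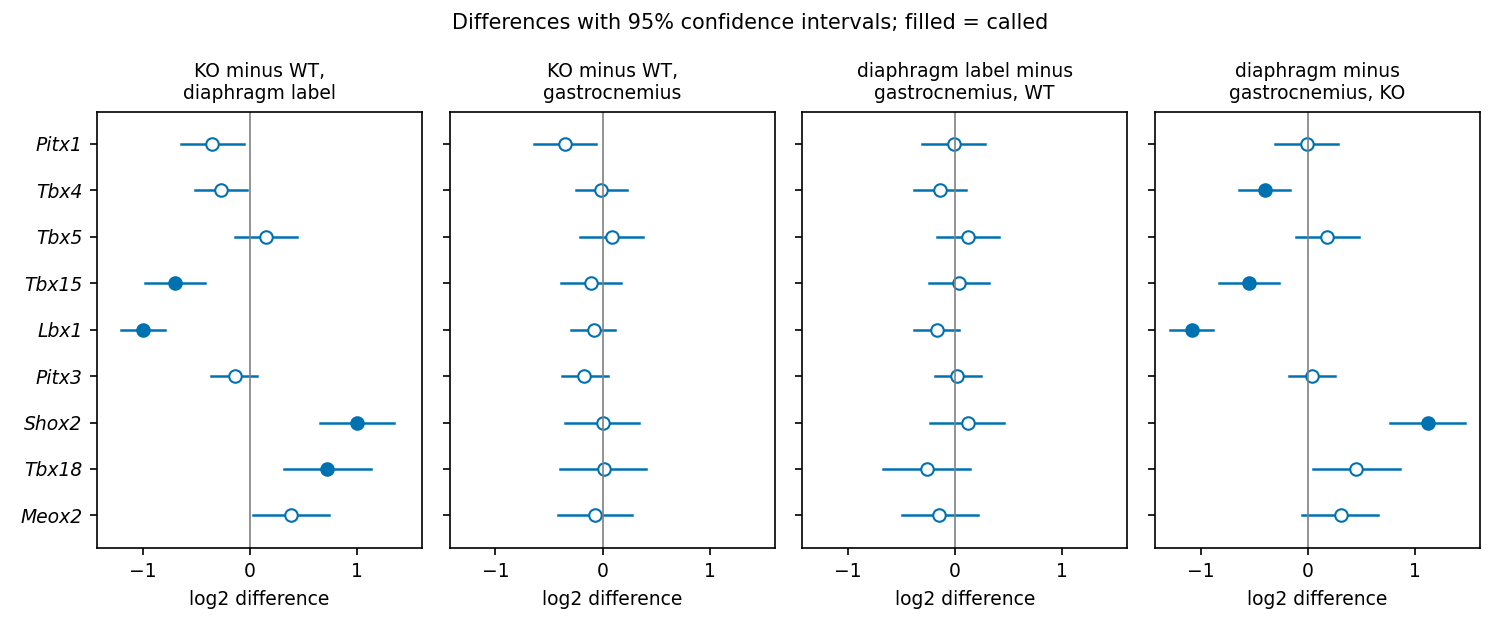
Log2 difference (horizontal axis) of each factor in 4 comparisons, with its 95% confidence interval; filled points were called at an adjusted p under 0.05 over all genes. Filled points lie only in the comparisons that involve KO diaphragm, with *Lbx1* near -1 and *Shox2* near 1 in both. Of all genes, 27.6% and 28.9% were called in these comparisons, and 0.592% and 0.461% in the others.

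Whether the arrays of both groups overlap can be counted without a model. Between KO diaphragm and the arrays labelled WT diaphragm, 7 of the 9 factors had groups that did not overlap, beside 43.1% of all genes. Between KO diaphragm and KO gastrocnemius it was 4 of 9, beside 44.8%. In KO against WT gastrocnemius it was 1 (*Pitx1*), beside 23.2%, and between the WT groups it was 1 (*Tbx18*), beside 16.8%. An exact permutation test of 3 arrays against 3 cannot give a two-sided p below 0.1. With KO diaphragm set against all 9 other arrays, a grouping chosen after the values were seen, 4 of 9 stood apart (*Shox2* above, *Tbx4*, *Tbx15* and *Lbx1* below), beside 23.4% of all genes. The interaction called 3 of 9 (*Lbx1*, *Shox2* and *Tbx15*), beside 14.8% of all genes.

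Relatives of the 9 within the T-box, paired-type, Lbx and Meox families included a few with large differences. Of 15 measured relatives, 4 were called higher and 1 lower in KO diaphragm against KO gastrocnemius, beside 28.9% of all genes called (3535 higher and 2232 lower). The other 10 were not called, and the median was 0.05, against 0.02 over all genes. *Tbx1*, a factor of branchiomeric head muscle and pharynx, measured 10.11, 9.54 and 9.42 in KO diaphragm and 6.92 to 8.07 on the other arrays. It rose by 2.57 (5.94-fold, adjusted p = 4.6e-06). *Tbx3*, which patterns the limb margins, measured 8.35 to 8.63 in KO diaphragm and 6.42 to 7.08 elsewhere, and rose by 1.75 (3.37-fold, adjusted p = 2.4e-07). *Meox1*, the paralog of *Meox2*, rose by 1.35 (adjusted p = 0.00015). *Tbx21*, the T-box factor of T helper cells, fell by 0.38 (adjusted p = 0.016). Against the arrays labelled WT diaphragm 3 were higher (*Tbx1*, *Tbx3* and *Meox1*) and none lower, with a median of -0.06. In KO against WT gastrocnemius none of the 15 was called, beside 0.592% of all genes.

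*Tbx2* with *Tbx4* and *Tbx3* with *Tbx5* lie next to each other on their chromosomes. *Tbx3* rose by 1.75 in KO diaphragm against KO gastrocnemius while its neighbour *Tbx5* was not called (0.18). In the other pair *Tbx4* fell by 0.40 while *Tbx2* differed by 0.07 (adjusted p = 0.61). The neighbours of *Lbx1*, *Tlx1* and *Btrc*, were not called in that comparison (0.11 and 0.06), nor were those of *Tbx15*, *Wars2* and *Spag17* (0.13 and -0.14). Beside *Shox2*, *Rsrc1* was at -0.05, and *Ptx3*, which encodes a pentraxin of innate immunity, fell by 1.30 (adjusted p = 0.0002), opposite to *Shox2*. Apart from *Tbx3* and *Ptx3*, the only neighbour called there was *Macroh2a1* beside *Pitx1* (-0.54, adjusted p = 0.00043).

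**Figure D3:**
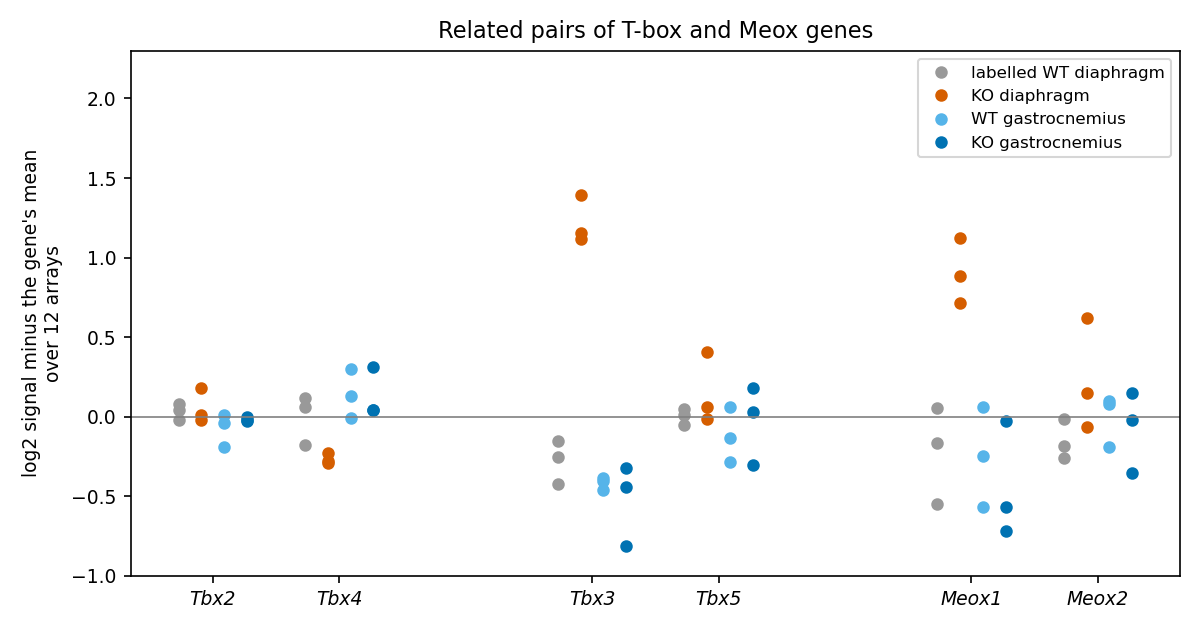
Log2 signal of 3 pairs of related genes on each of the 12 arrays (vertical axis, minus the mean of that gene over the 12 arrays), coloured by group. *Tbx3* and *Meox1* are higher on the KO diaphragm arrays than on all others, *Tbx4* is lower, and *Tbx2*, *Tbx5* and *Meox2* overlap between groups.

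Of 26 other transcription factors of limb patterning, 7 were called higher, 1 lower and 18 not in KO diaphragm against KO gastrocnemius, near the 28.9% called over all genes, with a median of 0.15. The leading ones were the homeobox genes *Meis2* (2.70, 6.49-fold, adjusted p = 2.3e-08) and *Meis1* (1.11, adjusted p = 1.2e-05), which mark the part of the limb nearest the trunk, followed by *Osr1* (1.00, adjusted p = 3.1e-05), a factor of muscle connective tissue, and *Twist1* (0.56, adjusted p = 0.0093), a factor of mesenchyme. *Meis2* measured 7.71, 7.86 and 8.20 in KO diaphragm and 5.08 to 5.68 on the 9 other arrays. Against the arrays labelled WT diaphragm 5 were higher and 4 lower, beside 27.6% of all genes, with a median of -0.02. *Prrx1*, a factor of limb mesenchyme, was among the 5 (0.51, adjusted p = 0.0013), but differed by 0.18 from KO gastrocnemius (adjusted p = 0.21).

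Of 24 signals of the limb bud and of muscle migration, 12 were called higher, 1 lower and 11 not in KO diaphragm against KO gastrocnemius, beside 28.9% of all genes, with a median of 0.19. The list was not tested against that share. They included *Aldh1a2*, which makes retinoic acid (1.19, adjusted p = 0.00039), the chemokine *Cxcl12* (0.76, adjusted p = 5.2e-05), the guidance ligand *Efna5* (0.95, adjusted p = 0.00023) and the growth factor *Bmp4* (0.78, adjusted p = 0.00047). Against the arrays labelled WT diaphragm 7 were higher and 2 lower, beside 27.6% of all genes, with *Wnt5a*, a signal for limb outgrowth, at 1.00 (adjusted p = 8.1e-05). The median was -0.02.

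Of 17 measured factors of muscle precursors, 1 was called higher, 5 lower and 11 not in KO diaphragm against KO gastrocnemius, near the 28.9% called over all genes, with a median of -0.12. Against the arrays labelled WT diaphragm 1 was higher and 6 lower, beside 27.6% of all genes, with a median of -0.16. *Pax3*, which acts upstream of *Lbx1* in migrating precursors, was the one that rose (1.44, 2.70-fold, adjusted p = 6.3e-06), in the direction opposite to *Lbx1*. *Mstn*, the brake on muscle growth, fell by 3.05 (8.30-fold, adjusted p = 7.6e-07), *Eya4* by 2.37 (adjusted p = 2e-06) and *Six2*, whose protein family works with Eya proteins, by 2.09 (adjusted p = 4.2e-07). *Myf6*, a myogenic factor of mature fibers, fell by 1.26 against the arrays labelled WT diaphragm (adjusted p = 8.4e-06). In gastrocnemius no gene of the 4 lists was called between KO and WT, where only 0.592% of all genes were called. The closest in this list were *Six2* (0.64, adjusted p = 0.09) and *Myod1* (-0.58, adjusted p = 0.068). Between the WT groups, *Myog* alone was called in the 4 lists, 0.73 higher on the arrays labelled WT diaphragm (adjusted p = 0.041). Of all genes 0.461% were called there.

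**Figure D4:**
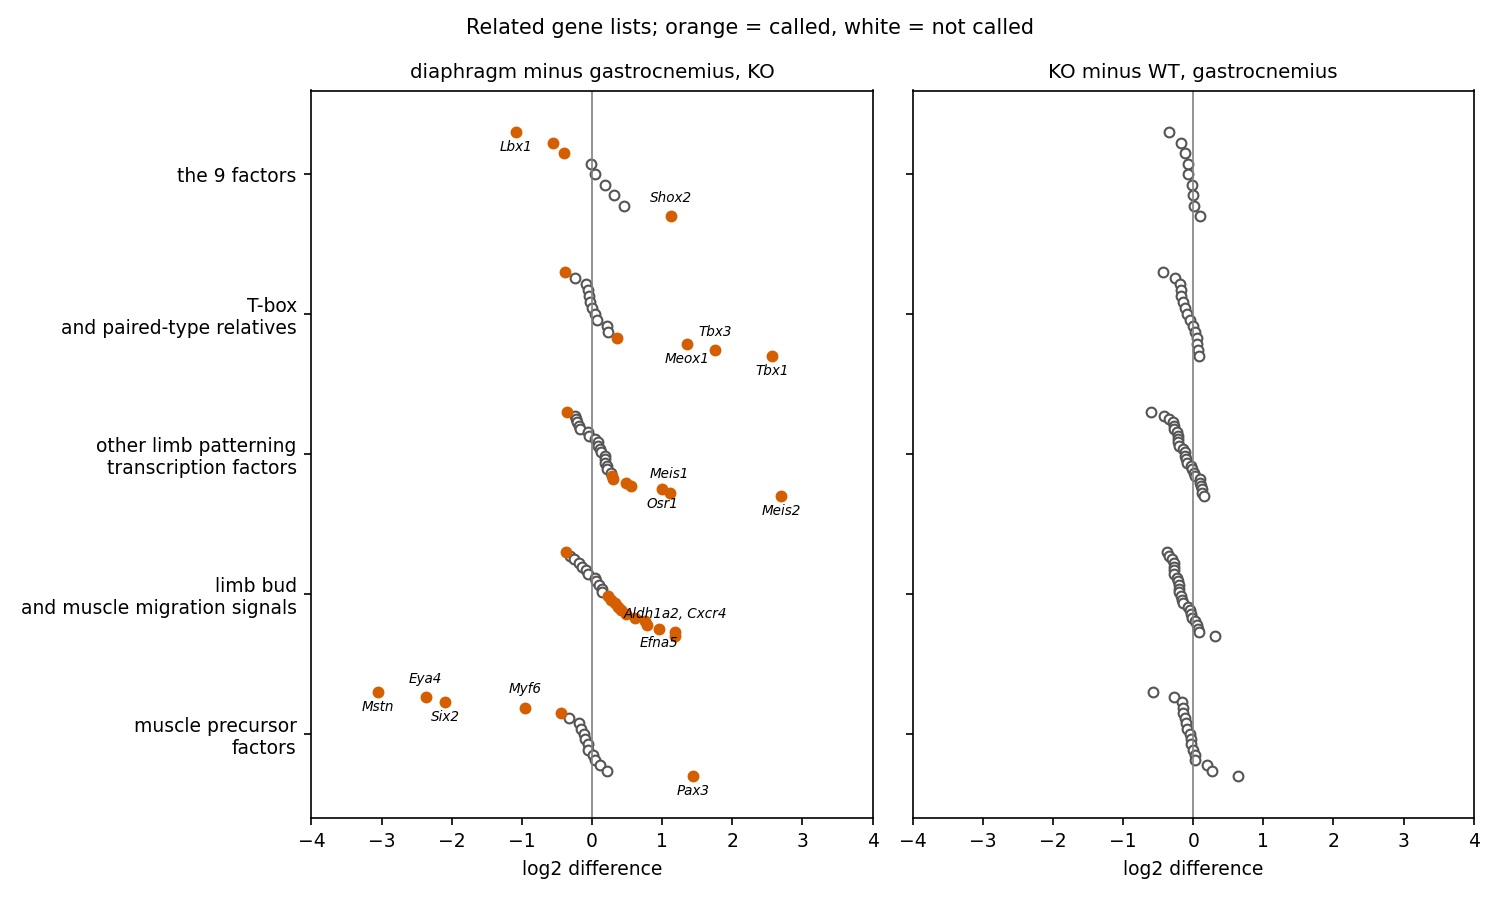
Log2 difference (horizontal axis) of each measured gene of the 9 factors and 4 related lists, in KO diaphragm minus KO gastrocnemius (left) and KO minus WT gastrocnemius (right); genes are stacked by value within each list, orange points were called, and called genes beyond 0.9 either way are named. Called genes appear on the left only, where 28.9% of all genes were called, against 0.592% on the right. On the left, 18 of 26 limb patterning factors, 11 of 24 signals and 11 of 17 muscle precursor factors were not called.

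Only *Shox2* and *Lbx1* had group means that spanned at least 1 unit (1.12 and 1.17), and for them the genes with the most similar pattern over the 12 arrays were looked up, as the root mean square difference between profiles centred on their own means. Nearest to *Shox2* were *Fyn* (0.14), *Pros1* and *Klhl6* (0.15 each), *Dpt* (0.16) and *Coro1c* (0.17), where the median of all genes was 0.53. Nearest to *Lbx1* were *Rnf126* (0.10) and *Cystm1*, *Cpeb2*, *Kcnj11* and *Ldha* (0.12 each), where the median was 0.49. *Ldha* encodes the lactate dehydrogenase subunit of glycolytic muscle and *Dpt* a matrix protein of connective tissue. Since 3 arrays set both patterns, likeness here mostly says that a gene was lower or higher in KO diaphragm by about the same amount.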

How the data were processed

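Gene expression was measured on 12 Gene 1.0 ST arrays, 100 ng of total RNA each. The authors processed the scans by RMA sketch in Affymetrix Expression Console with its standard settings (version not given in the sources used here), and the deposited values are log2 signals per transcript cluster, from 1.65 to 14.41. Of 35556 probe sets, 21789 carry 1 gene symbol, 1621 several and 12146 have no entry in the annotation used here, and only the first were kept, the brightest per gene (19938 genes). Array number limits the precision (median residual SD 0.138).

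Comparisons were made with limma 3.58.1 in R 4.3.3 (lmFit, eBayes, 4 group means, no covariate, 8 residual and 6.18 prior degrees of freedom). On simulated data for KO minus WT under the diaphragm label (19938 genes), the model found 94 of 100 genes changed by 1 and 46 of 100 changed by 0.5, and made 5 false calls. Far fewer genes were changed there than the 27.6% called in the real comparison, and the simulated noise was independent between genes. These rates therefore need not hold for the real comparison. Named were all members, up to 4 called genes per list and comparison with the smallest adjusted p (2 by smallest p in lists without a call), label checks, neighbours and like profiles. Members and lists were chosen with earlier results of these data known. Motifs were searched on both strands of the RefSeq promoters, which cover 5 of the 9 members. Neighbours came from the GRCm38.p6 annotation. Alternatives were other scalings, variance models, replicate blocks (statmod 1.5.0), a signal filter, probe set means, smaller fits, single arrays left out, the arrays labelled WT diaphragm left out and the methods' t-test. The mean over both labels and KO diaphragm against all other arrays were added after seeing the data.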

Additional observations from a re-analysis of the deposited data

Results flagged for a closer look

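The KO minus WT difference of 3 factors was unequal between the diaphragm label and gastrocnemius by a test of that inequality itself, the interaction in the limma model. For *Lbx1* it was -0.91 (adjusted p = 0.00044), for *Shox2* 1.00 (adjusted p = 0.0083) and for *Tbx15* -0.59 (adjusted p = 0.045). The interaction was called for 14.8% of all genes, so that nothing particular to these factors is read from their number. The *Tbx15* call was lost in 10 of 12 fits that left out a single array (adjusted p up to 0.11), after quantile normalization (0.057) and with a random replicate block (0.051). Each rests on the arrays labelled WT diaphragm, whose mean signal of the 10 *Hox* genes was like that of gastrocnemius. An effect of genotype that differs by muscle and a difference of tissue therefore cannot be told apart in it.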

How the results depend on the processing

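Precision was set by 3 arrays a group, and *Shox2* and *Tbx5* lay near the level of probe sets without target. Of the members called under the diaphragm label (4), 2 were called among genes at or above the median signal (*Tbx15* and *Lbx1*). With that filter 45.7% of 9969 genes were called, and *Shox2* and *Tbx18* lay below it and were not tested. The methods' t-test with adjustment left 1 (*Lbx1*), beside 9.98% of all genes. The mean over both labels gave 2 with that signal filter, beside 37.5% of the genes tested. Leaving out 1 array gave 3 to 6 calls under the diaphragm label, beside 21.6 to 25.9% of all genes. For the interaction it gave 2 to 3 (11.8 to 15.1%), and for KO diaphragm against KO gastrocnemius 3 to 5 (22.9 to 25.9%). For the mean over both labels it gave 4 to 5 (18 to 22.9%). It gave 0 for gastrocnemius (0.16 to 0.406%) and for the WT groups (0.196 to 0.421%). Without the arrays labelled WT diaphragm, KO diaphragm against KO gastrocnemius still gave 4 (28.3% of all genes) and gastrocnemius 0 (0.386%). The methods' t-test with adjustment left 3 in KO diaphragm against KO gastrocnemius, losing *Tbx4*, beside 17.4% of all genes.

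Median centring added *Pitx1* under the diaphragm label (-0.38, adjusted p = 0.046), as did quantile normalization (-0.39). It turned values near 0: for KO minus WT gastrocnemius *Tbx4* to 0.03 and *Shox2* to 0.04 (0.00 and 0.04 after quantile normalization), for the interaction *Pitx1* to -0.07, *Pitx3* to -0.05 and *Tbx5* to -0.01 (-0.07 and -0.06 for the first pair after quantile normalization), and for KO diaphragm minus KO gastrocnemius *Pitx3* to -0.03 (-0.04). Single arrays left out turned, in gastrocnemius, *Tbx4* (-0.10 to 0.07), *Tbx5* (-0.02 to 0.22), *Tbx18* (-0.16 to 0.24), *Shox2* (-0.11 to 0.18) and *Meox2* (-0.18 to 0.07), and in the interaction *Pitx1* (-0.15 to 0.11), *Pitx3* (-0.07 to 0.10) and *Tbx5* (-0.07 to 0.17). They also turned *Pitx1* (-0.10 to 0.14), *Pitx3* (-0.05 to 0.12) and *Tbx15* (-0.11 to 0.16) between the WT groups, and *Pitx1* (-0.13 to 0.09) and *Pitx3* (-0.02 to 0.09) between the KO groups. None of these was called.

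Over all genes, the calls under the diaphragm label split into 3258 higher and 2238 lower, 2968 and 2803 after median centring, and 2764 and 2838 after quantile normalization. Gastrocnemius calls numbered 118, 187 and 76 in the same order. The methods' t-test with adjustment called 1989 genes in place of 5496 under the diaphragm label, and 3478 in place of 5767 in KO diaphragm against KO gastrocnemius. Deviations of arrays with the same replicate number correlated at -0.10 to 0.16 (median -0.01, 2 of 18 pairs over 0.1). Those with different numbers correlated at -0.23 to 0.17 (median -0.01, 2 of 36 pairs), so that the numbers were not taken as pairs. The fixed replicate block added *Tbx18* for the interaction (0.72, adjusted p = 0.05), for KO diaphragm against KO gastrocnemius (0.45, adjusted p = 0.049) and for the mean over both labels (0.36, adjusted p = 0.035), and the random block lost the *Tbx15* interaction (adjusted p = 0.051). The block changed no other call of a member.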
